A study of Homo sapiens with 12 samples.

Results

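Aminoacyl-tRNA synthetases load each tRNA with its amino acid, and their transcripts are described here in OCI-AML3 cells, a human line long kept in culture that derives from acute myeloid leukaemia. The set was drawn up by gene name and holds 38 genes out of 57905 gene identifiers in the count table. Of these, 19 encode cytosolic synthetases, 16 encode mitochondrial synthetases and 3 (AIMP1, AIMP2 and EEF1E1) encode scaffold proteins of the multisynthetase complex. Each name matched 1 Ensembl identifier, older names without the final 1 being taken as the same gene, and all 38 had enough reads to be tested.

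The 12 libraries fall into 4 groups of 3. Cells labelled SA received SA at 500 µM for 6 days, and vehicle cells were kept for the same time without it. SA is not spelled out in the labels; in studies of heme it commonly stands for succinylacetone, which blocks ALAD, an early enzyme of the pathway. Cells labelled sgALAS1 carried a guide against ALAS1, the gene of the first and rate-limiting enzyme of heme synthesis outside red cells, and sgSCR cells carried a scrambled guide. Doxycycline was given for 7 days to switch on either guide. The guide groups therefore both carry a transduced guide and doxycycline, which the SA and vehicle groups lack. No further allele, clone or Cas9 source is given for any group in the sources used here, and all 4 groups come from 1 cell line.

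Cytosolic synthetases charge the tRNAs used by cytosolic ribosomes, and a separate set of nuclear genes, most with names ending in 2, supplies mitochondria. GARS1 and KARS1 are exceptions, since each gene encodes both the cytosolic and the mitochondrial enzyme. Uncharged tRNA is sensed by the kinase GCN2 and lack of heme by the related kinase HRI, and both phosphorylate eIF2α, which favours translation of the transcription factor ATF4. Many cytosolic synthetase genes are known ATF4 targets, whereas the mitochondrial ones are generally not listed among them.

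Reads were QuantSeq tags from the 3′ end of polyadenylated transcripts, so the number of reads of a gene does not grow with its length. Levels are normalised CPM, that is, reads scaled to a common library size. Library totals ran from 4658513 to 7339843 reads, with a median of 5573540, and 13832 identifiers were tested. A member is called changed where the adjusted p-value of edgeR's quasi-likelihood test, corrected over all tested genes, is under 0.05, and changes are given on the log2 scale with a standard error (SE). Whether the replicates of a group were grown separately is not in the labels, and the spread behind the p-values may be technical. In bulk RNA a change in the share of cells that express a gene and a change in RNA per cell cannot be told apart. All 8 markers of the myeloid lineage had reads in every group, and their summed level was 3032 to 3388 CPM with SA against 2170 to 2539 CPM with vehicle, and 2747 to 2937 CPM with sgALAS1 against 2029 to 2228 CPM with sgSCR. With SA 2 of the 8 rose, LYZ, the lysozyme gene (1.37, SE 0.12, adjusted p = 1.36e-09), and SPI1, the gene of the myeloid factor PU.1 (0.96, SE 0.16, adjusted p = 0.000133). With sgALAS1 3 of the 8 rose, LYZ (1.60, SE 0.12, adjusted p = 1.9e-11), CEBPA (0.42, adjusted p = 0.0307) and ANPEP (2.39, SE 0.64, adjusted p = 0.0118), while SPI1 had 0.35 (adjusted p = 0.174). Some means were lower: with SA, MPO had 1.71 CPM against 3.50, CSF3R 42.2 against 54.4 and NPM1 1033 against 1291. With sgALAS1, CSF3R had 57.4 CPM against 73.1 and NPM1 1063 against 1177. The other markers had higher means in each arm. The rise in the summed level was largely that of LYZ, with means of 1455 against 564 CPM with SA and 1030 against 341 CPM with sgALAS1. Between the controls LYZ had a log2 fold change of -0.73, sgSCR over vehicle (adjusted p = 0.000402). The summed level of the erythroid markers was at most 1.46 CPM. The summed lymphoid markers, with CD3D as the one with reads in sgSCR, were at most 1.62 CPM with SA against 12.5 to 15.5 CPM with vehicle, and at most 0.91 CPM with sgALAS1 against 4.18 to 5.62 CPM with sgSCR. The part of the myeloid and lymphoid markers in the results was not tested. ALAS1 had 106, 102 and 111 CPM with SA against 37.5, 36.4 and 31.1 CPM with vehicle (log2 fold change 1.60, SE 0.14, adjusted p = 1.36e-09). It had 26.2, 26.3 and 27.3 CPM with sgALAS1 against 38.6, 41.9 and 37.4 CPM with sgSCR (-0.56, SE 0.14, adjusted p = 0.00777). Editing of the guide's site cannot be read from tags of this kind.

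The cytosolic and mitochondrial genes were expressed at different levels in every group. Mean levels of the 19 cytosolic genes ran from 42.6 CPM for HARS1 to 907 CPM for TARS1 in vehicle cells, with a median of 145 CPM. The 16 mitochondrial genes ran from 5.64 CPM for NARS2 to 72.4 CPM for IARS2 in the same cells, with a median of 11.6 CPM. TARS1 was the highest cytosolic gene and IARS2 the highest mitochondrial gene in all 4 groups. Mitochondrial members therefore rested on 12 to 639 reads per library, cytosolic members on 158 to 6656. The median SE of a log2 fold change was 0.26 for the mitochondrial genes and 0.14 for the cytosolic genes in the SA arm, so changes of the same size were less likely to be called in the mitochondrial set.

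The vehicle libraries were not alike for the cytosolic synthetases, and this touches every comparison with them. The summed level of the 19 genes was 3824, 4003 and 2952 CPM in vehicle replicates 1, 2 and 3, so that replicate 3 lay nearest to the SA libraries. ATF4 had the same order, with 466, 533 and 303 CPM, and so did ASNS, the asparagine synthetase gene and an ATF4 target, with 126, 202 and 49.7 CPM. In the sgSCR group the summed level was 2748, 3374 and 3114 CPM, and ATF4 had 204, 314 and 276 CPM. The SA and sgALAS1 libraries were close to each other, at 2663 to 2748 CPM and 2692 to 2729 CPM. Results are given below with and without single libraries where a call depends on them.

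**Figure D1:**
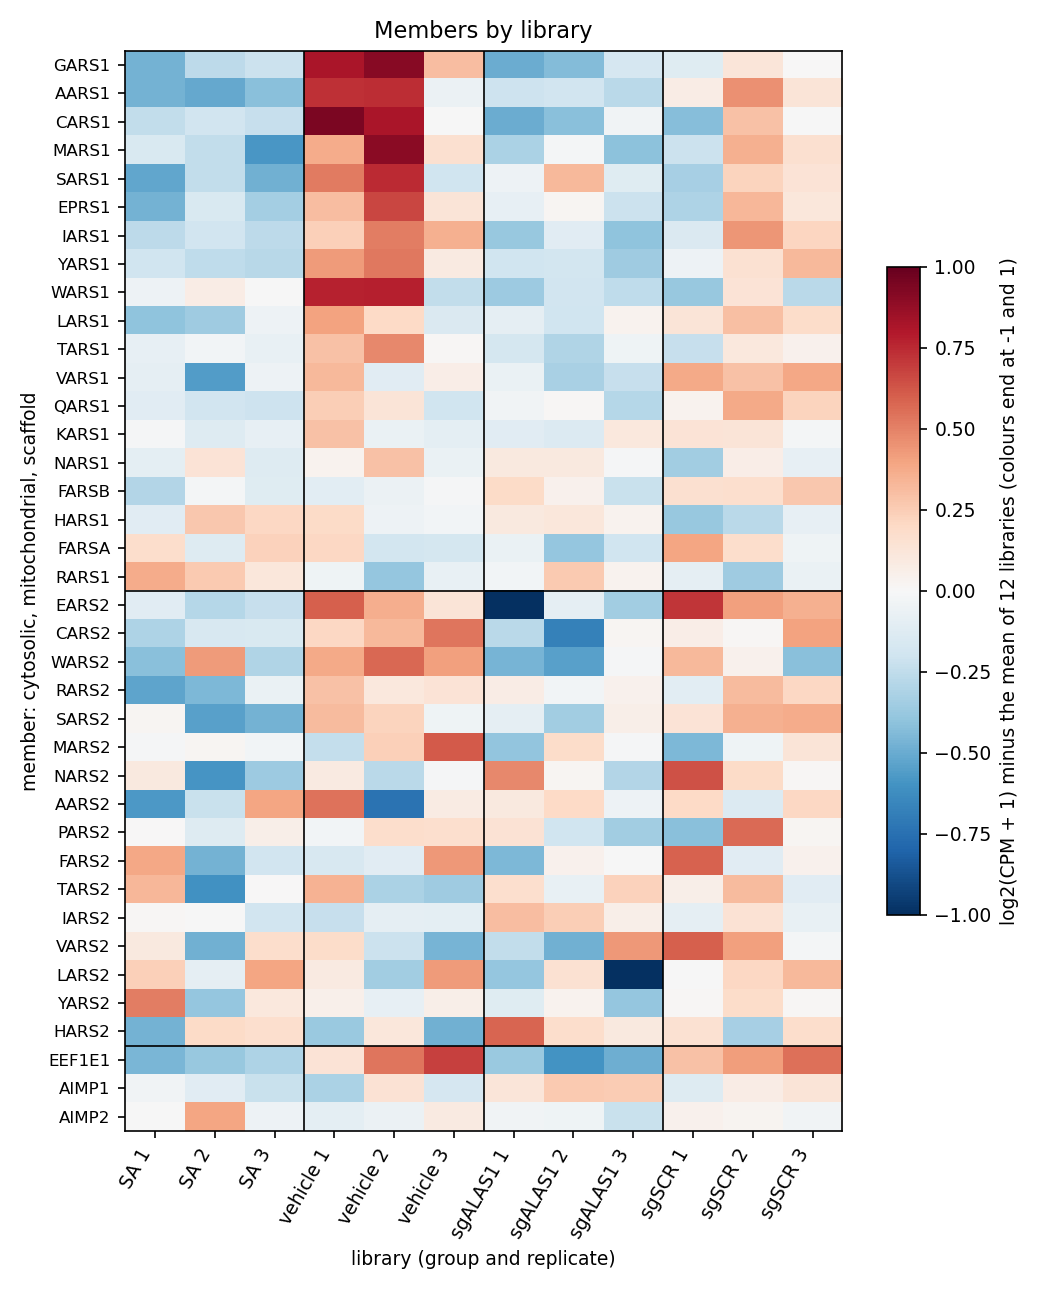
Each row is 1 of the 38 members and each column 1 of the 12 libraries; the colour is log2(CPM + 1) minus that gene's mean over all libraries, with colours ending at -1 and 1. Red cells lie at the top of vehicle columns 1 and 2, over genes such as GARS1, AARS1 and CARS1, and the third vehicle column is paler there; the mitochondrial rows show no block of colour shared by a group.

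The first question is what the compound does to these transcripts. Cytosolic synthetase transcripts were lower with SA: 9 of 19 fell, 1 rose and 9 did not pass the test. Over all tested genes, 11.1% were called, 6.24% lower and 4.83% higher. Of the mitochondrial synthetases none of 16 was called by edgeR, and none by DESeq2. Of these, 3 (CARS2, RARS2 and SARS2) had an unadjusted p under 0.05 in edgeR, all lower. The share of all tested genes under that unadjusted threshold was not counted, though it is at least the 11.1% called. The 3 of 16 are therefore not read as a change of the set. Among the scaffold genes EEF1E1 fell, and AIMP1 and AIMP2 did not pass the test. The median log2 fold change was -0.43 over the cytosolic set, -0.15 over the mitochondrial set and -0.01 over all tested genes. In the cytosolic set 9 genes had every SA library below every vehicle library and 1 had every SA library above, against 14.8% and 12.6% of all tested genes.

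GARS1, the glycyl-tRNA synthetase gene on chromosome 7, had the smallest p-value of the set. Its level was 67, 78 and 80.7 CPM with SA against 166, 177 and 116 CPM with vehicle. The groups did not overlap, and the SA level was 0.492 of the vehicle level (log2 fold change -1.02, SE 0.14, adjusted p = 8.88e-06). AARS1, which encodes the alanyl enzyme on chromosome 16, had 98.7, 96.1 and 103 CPM with SA against 229, 230 and 132 CPM with vehicle. Its SA libraries lay within a few CPM of each other and below the lowest vehicle library (-0.99, SE 0.15, adjusted p = 3.41e-05).

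EPRS1 joins the glutamyl and prolyl enzymes in 1 protein and is a member of the multisynthetase complex. It had 192, 239 and 210 CPM with SA against 330, 424 and 292 CPM with vehicle (-0.71, SE 0.14, adjusted p = 0.00104). MARS1, the methionyl enzyme of the same complex, had 66.3, 62.1 and 49 CPM with SA against 96, 139 and 82.6 CPM with vehicle (-0.84, SE 0.17, adjusted p = 0.00112). In both genes the groups did not overlap, and vehicle replicate 2 was the highest library. The 3′ end of MARS1 lies over DDIT3 on the opposite strand in GENCODE 29. DDIT3, the stress transcription factor CHOP, also fell with SA (-0.76, SE 0.17, adjusted p = 0.00404), and since the strand setting of the counting is not given, reads of the pair cannot be told apart.

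CARS1, the cysteinyl enzyme, had 102, 106 and 104 CPM with SA against 234, 214 and 121 CPM with vehicle (-0.87, SE 0.18, adjusted p = 0.00127). Vehicle replicate 3 was the lowest of its group and still above the SA libraries. The other cytosolic genes called lower were SARS1 (seryl, -0.83, adjusted p = 0.00202), IARS1 (isoleucyl, -0.62, adjusted p = 0.00307), YARS1 (tyrosyl, -0.61, adjusted p = 0.00179) and LARS1 (leucyl, -0.43, adjusted p = 0.0326). The LARS1 groups overlapped, with 112, 115 and 142 CPM in SA against 195, 169 and 133 CPM in vehicle, and its call did not survive leaving out replicate 1 or 2 of either group, with adjusted p-values up to 0.174.

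RARS1, the arginyl enzyme, was the single member called higher. It had 149, 138 and 125 CPM with SA against 111, 88 and 109 CPM with vehicle, and the groups did not overlap (0.41, SE 0.13, adjusted p = 0.0343). Leaving out vehicle replicate 2 ended the call, as did leaving out SA replicate 1 or 2 (adjusted p-values up to 0.199). RARS1 is a synthetase of the same complex as EPRS1, IARS1, LARS1 and MARS1, all called lower. Of the 7 synthetases of the complex in the set, 4 fell, 1 rose and 2 (KARS1 and QARS1) were not called. Of the 12 cytosolic genes outside it, 5 fell and 7 were not called.

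The 9 cytosolic genes not called ran from -0.51 for WARS1 (adjusted p = 0.0578) to 0.14 for FARSA. WARS1, the tryptophanyl enzyme and also an interferon-induced gene, had 116, 127 and 120 CPM with SA against 206, 207 and 101 CPM with vehicle. Its vehicle libraries lay on both sides of the SA libraries, and without vehicle replicate 3 its value was -0.77 (adjusted p = 0.000301). TARS1, the threonyl enzyme, had 710, 735 and 713 CPM with SA against 918, 1048 and 756 CPM with vehicle (-0.33, adjusted p = 0.0647), and -0.45 without vehicle replicate 3 (adjusted p = 0.0189). Without that library 11 cytosolic genes were called lower, and without vehicle replicate 2 the number was 8. Calls over all tested genes, in either direction, were 1113 of 14448 without vehicle replicate 3 and 955 of 14286 without vehicle replicate 2. With all libraries they were 1531 of 13832. FARSA and FARSB, the subunits of the phenylalanyl enzyme, had 0.14 and -0.08.

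EEF1E1, also known as AIMP3 or p18, is a small scaffold protein of the complex. Its level was 22.1, 23.5 and 24.6 CPM with SA against 33.9, 45 and 50.3 CPM with vehicle (-0.87, SE 0.17, adjusted p = 0.000706). Here vehicle replicate 1 was the lowest vehicle library and replicate 3 the highest, the opposite order to that of CARS1. AIMP1 and AIMP2 had log2 fold changes of -0.02 and 0.15, and over both genes the libraries ran from 65.5 to 110 CPM with SA against 61.5 to 88.1 CPM with vehicle. The 3′ end of EEF1E1 is shared with the readthrough gene EEF1E1-BLOC1S5, which had 258 reads over the 12 libraries against 2266 for EEF1E1. The end of AIMP2 lies over EIF2AK1, the gene of HRI, on the opposite strand.

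**Figure D2:**
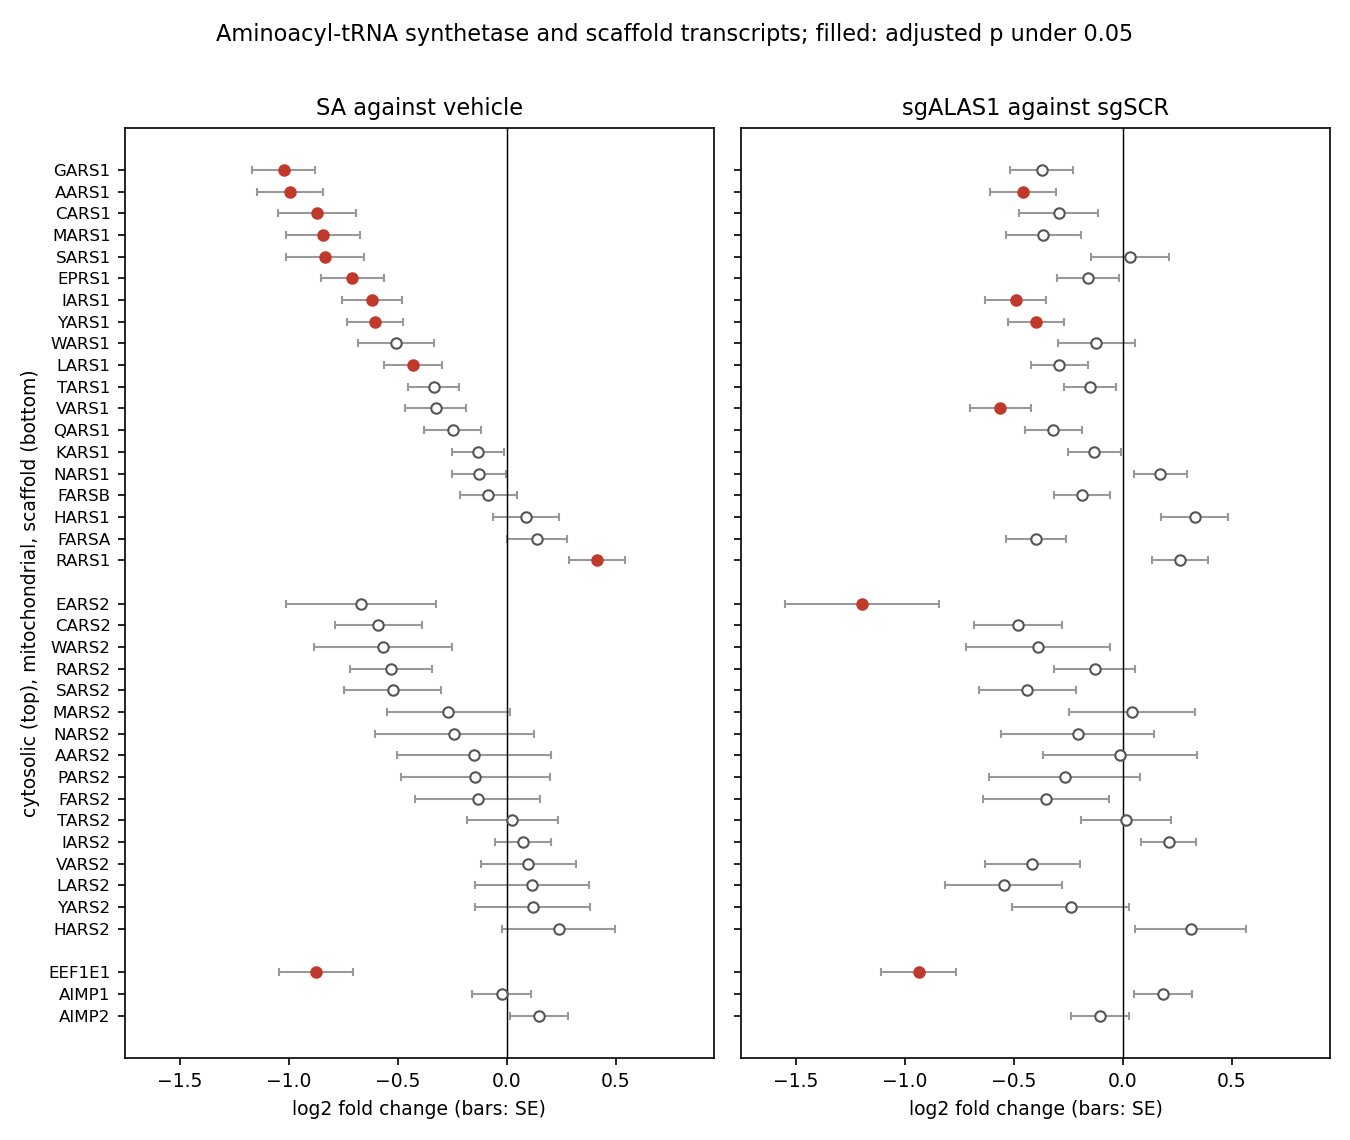
Points are log2 fold changes of the 38 members in SA against vehicle (left) and sgALAS1 against sgSCR (right), with bars of 1 SE; filled points have an adjusted p under 0.05. On the left 9 cytosolic genes and EEF1E1 are filled below 0 and RARS1 above it; on the right 4 cytosolic genes, EARS2 and EEF1E1 are filled, all below 0.

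Promoter sequences were examined because several of the cytosolic genes moved together. The motif TGATGNAA, a consensus of the C/EBP-ATF response element to which ATF4 binds as a dimer with C/EBP proteins, was searched on both strands. The windows run from 250 bases before to 50 bases after each RefSeq start (GRCh38.p14), a different build from the hg19 of the counts. A window was available for 33 of the 38 members and not for LARS1, VARS1, YARS1, AARS2 and VARS2. The motif was present in 7 of 16 cytosolic genes (43.8%), in 1 of 14 mitochondrial genes (7.14%), in 0 of 3 scaffold genes and in 1217 of 27305 genes of the whole table (4.46%). In the stretches below, written 5′ to 3′ in the direction of the gene, capitals mark the match. The first 5 belong to genes that fell with SA, the next 2 to cytosolic genes that were not called, and YARS2 is the single mitochondrial gene with a match.
AARS1: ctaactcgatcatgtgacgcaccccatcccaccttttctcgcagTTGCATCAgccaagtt
CARS1: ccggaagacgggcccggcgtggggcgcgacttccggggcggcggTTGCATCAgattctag
GARS1: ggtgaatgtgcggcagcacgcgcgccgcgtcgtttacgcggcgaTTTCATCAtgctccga
IARS1: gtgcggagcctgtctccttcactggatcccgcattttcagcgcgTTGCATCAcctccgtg
MARS1: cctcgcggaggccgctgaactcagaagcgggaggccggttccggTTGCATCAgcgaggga
NARS1: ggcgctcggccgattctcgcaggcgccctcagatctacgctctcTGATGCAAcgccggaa
TARS1: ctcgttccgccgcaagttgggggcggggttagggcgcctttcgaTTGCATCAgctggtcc
YARS2: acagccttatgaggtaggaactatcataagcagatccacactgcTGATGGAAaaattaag

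These stretches lie at chr16:70289678-70289737 (minus strand) for AARS1, chr11:3057410-3057469 (minus) for CARS1, chr7:30594801-30594860 (plus) for GARS1 and chr9:92293695-92293754 (minus) for IARS1. The others lie at chr12:57488020-57488079 (plus) for MARS1, chr18:57621807-57621866 (minus) for NARS1, chr5:33440923-33440982 (plus) for TARS1 and chr12:32756079-32756138 (minus) for YARS2. The match began 187 bases before the start in AARS1, 33 in GARS1, 13 in IARS1, 4 in MARS1, 2 in CARS1 and 197 in YARS2. It began 3 bases after the start in TARS1 and 15 after it in NARS1. In 6 of the 8 genes the match read TGATGCAA on one strand; GARS1 had TGATGAAA and YARS2 TGATGGAA. EPRS1 and SARS1, which fell, had no match in these windows, and a match is only a description of the letters.

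A list of 11 cytosolic synthetases usually named as ATF4 targets (AARS1, CARS1, EPRS1, GARS1, IARS1, LARS1, MARS1, NARS1, SARS1, TARS1 and WARS1) held 8 of the 9 cytosolic genes called lower with SA. The exceptions inside it were WARS1, TARS1 and NARS1, and all 11 values were below 0, with a median of -0.71. Of the 8 cytosolic genes outside the list, YARS1 fell, RARS1 rose and 6 were not called, with a median of -0.11. The motif was present in 7 of 10 listed genes with a window (70.0%) and in 0 of the 6 others. Those 6 leave out YARS1 and VARS1, which had no window. YARS1 was called lower in both arms and VARS1 with sgALAS1, and none of the 6 was called lower in either arm. The list and the motif both rest on what is known of ATF4, so the 70.0% is not a separate observation. The part of ATF4 in these changes was not tested. ATF4 itself had 213, 228 and 189 CPM with SA against 466, 533 and 303 CPM with vehicle (-1.05, SE 0.16, adjusted p = 2.62e-05). These are transcript levels, and neither translation of ATF4 nor its protein was measured in these libraries. ASNS had 42.5, 45.2 and 38.1 CPM with SA against 126, 202 and 49.7 CPM with vehicle (-1.59, SE 0.28, adjusted p = 0.000177). In the list of 10 genes of the ATF4 axis 8 fell and ATF5 rose. The smallest p-values belonged to PSAT1, a serine synthesis enzyme (-1.84, SE 0.22, adjusted p = 9.87e-07), CHAC1, which degrades glutathione (-2.76, SE 0.35, adjusted p = 2.23e-06), and PHGDH, the first enzyme of serine synthesis (-1.73, SE 0.23, adjusted p = 3.78e-06).

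**Figure D3:**
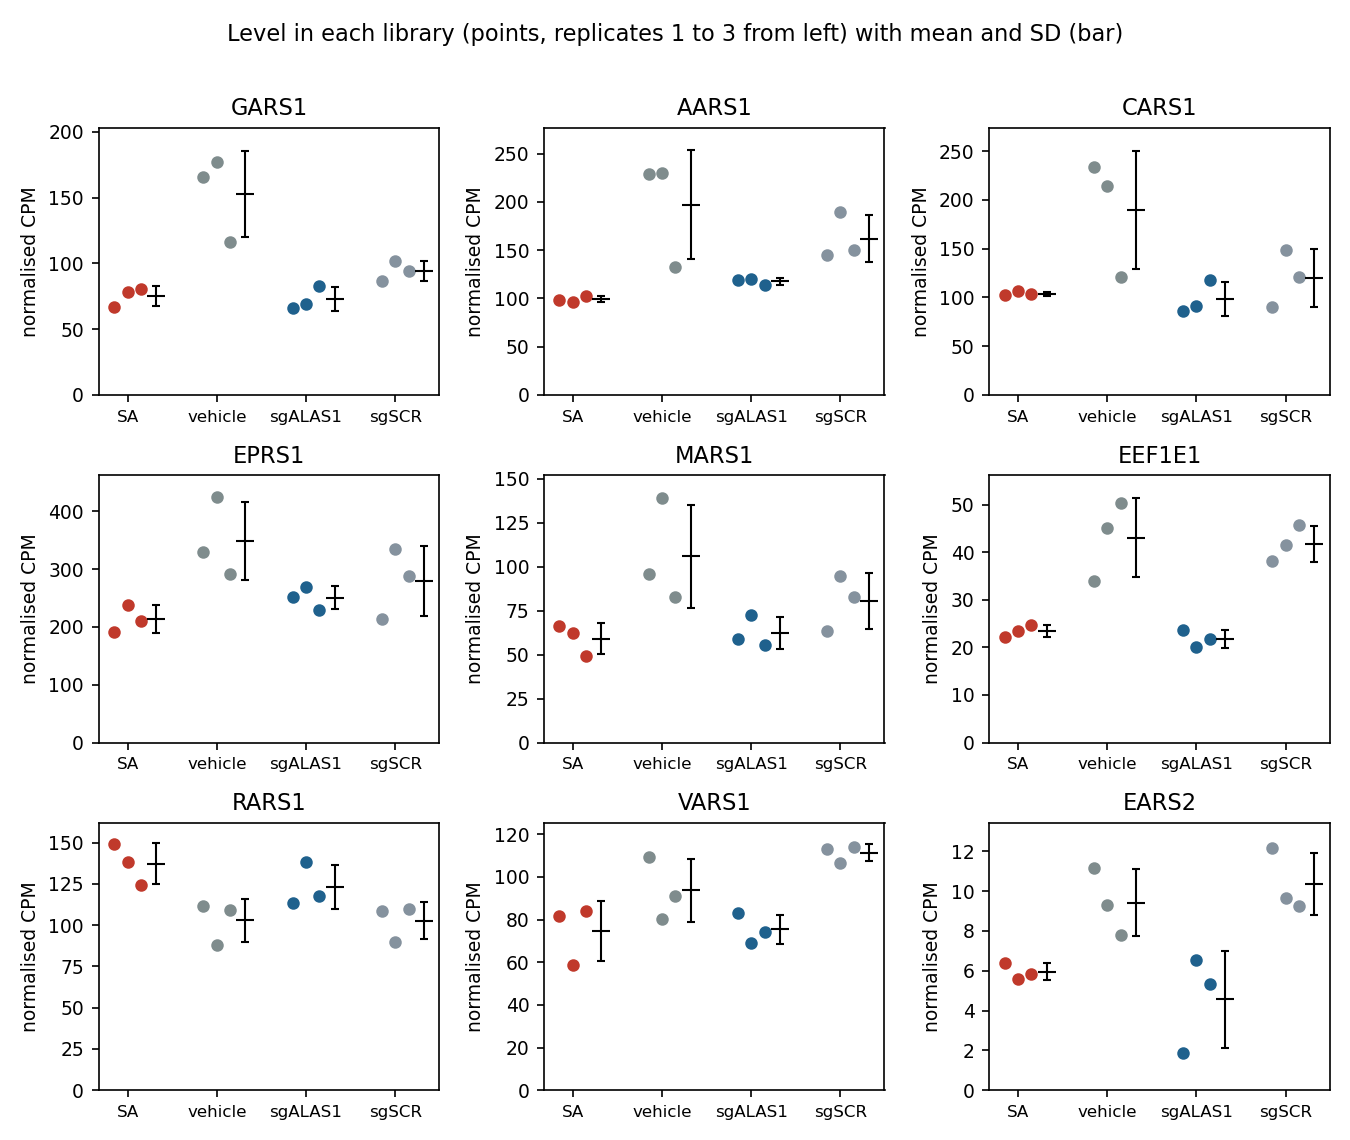
Normalised CPM of 9 members in each library (points, replicates 1 to 3 from left) with the mean and SD of 3 libraries (bar), on axes that start at 0. For GARS1, AARS1, CARS1, EPRS1 and MARS1 the vehicle points lie above the SA points and spread widely; EEF1E1 is low in both the SA and sgALAS1 libraries, and EARS2 has its lowest point in sgALAS1 replicate 1.

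The comparison of sgALAS1 with sgSCR asks what changes when ALAS1 is targeted. Among the synthetases and scaffold genes the calls were 4 of 19 cytosolic genes (VARS1, IARS1, YARS1 and AARS1), 1 of 16 mitochondrial genes (EARS2) and EEF1E1, all lower. Over all tested genes 11.7% were called, 6.85% lower and 4.88% higher. The median log2 fold change was -0.29 over the cytosolic genes and -0.25 over the mitochondrial genes, against 0.00 over all tested genes. The cytosolic set had 7 genes with every sgALAS1 library below every sgSCR library and 2 (HARS1 and RARS1) with every one above, against 15.5% and 13.6% of all tested genes.

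EEF1E1 had the smallest p-value of the members in this arm. Its level was 23.6, 20 and 21.7 CPM with sgALAS1 against 38, 41.5 and 45.6 CPM with sgSCR (-0.94, SE 0.17, adjusted p = 0.000273). The groups lay well apart, and the call held with each library left out in turn, as it did in the SA arm. VARS1, the valyl enzyme, had 82.9, 69.2 and 74 CPM with sgALAS1 against 113, 107 and 114 CPM with sgSCR (-0.56, SE 0.14, adjusted p = 0.00699). Its call also held with each library left out. In the SA arm VARS1 had -0.33 (adjusted p = 0.142), with 81.8, 58.7 and 83.8 CPM in SA against 109, 80.4 and 91.3 CPM in vehicle.

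The other 3 cytosolic calls were lost in most fits with 1 library left out, whichever group it came from. IARS1 had 67.8, 81.8 and 66.9 CPM with sgALAS1 against 80.3, 121 and 103 CPM with sgSCR (-0.49, SE 0.14, adjusted p = 0.0177), with sgSCR replicate 1 inside the range of the sgALAS1 libraries. YARS1 had 98.2, 99.2 and 88 CPM with sgALAS1 against 109, 126 and 142 CPM with sgSCR (-0.40, SE 0.13, adjusted p = 0.0405), without overlap. AARS1 had 119, 120 and 114 CPM with sgALAS1 against 145, 190 and 150 CPM with sgSCR (-0.46, SE 0.15, adjusted p = 0.0453), again without overlap. IARS1 kept its call in 2 of the 6 fits with 1 library left out (without sgSCR replicate 1 or sgALAS1 replicate 2), and YARS1 and AARS1 each kept it in 1 (without sgSCR replicate 1). The highest adjusted p-values were 0.187, 0.201 and 0.282. In these fits all 3 genes stayed below 0, with values nearest to it of -0.34, -0.30 and -0.32. The number of cytosolic calls was 4 without sgSCR replicate 1, 2 without sgSCR replicate 3 or sgALAS1 replicate 2, and 1 without sgSCR replicate 2, sgALAS1 replicate 1 or sgALAS1 replicate 3. Calls over all tested genes, in either direction, also dropped in these 6 fits. They ran from 1134 of 14292 without sgSCR replicate 2 to 1415 of 14312 without sgSCR replicate 3, against 1622 of 13832 with all libraries.

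EARS2, the mitochondrial glutamyl enzyme, was the single mitochondrial synthetase called in either arm. It had 1.85, 6.54 and 5.32 CPM with sgALAS1, from 12, 36 and 24 reads, against 12.2, 9.64 and 9.26 CPM with sgSCR, from 61, 60 and 56 reads (-1.20, SE 0.35, adjusted p = 0.0235). sgALAS1 replicate 1 was the lowest library and sgSCR replicate 1 the highest. The call was lost without sgALAS1 replicate 1 (-0.80), without sgSCR replicate 1 or without sgSCR replicate 2, with adjusted p-values up to 0.157. In the SA arm EARS2 had 6.41, 5.57 and 5.84 CPM with SA against 11.2, 9.31 and 7.79 CPM with vehicle, without overlap (-0.67, adjusted p = 0.229).

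The 15 cytosolic genes not called in the sgALAS1 arm ran from -0.40 for FARSA (adjusted p = 0.0576) to 0.33 for HARS1. GARS1, first in the SA arm, had 66.2, 69.2 and 83.1 CPM with sgALAS1 against 86.3, 102 and 94.1 CPM with sgSCR (-0.37, adjusted p = 0.0946). SARS1 had 81.5, 106 and 77.4 CPM with sgALAS1 against 66.9, 98.4 and 92.9 CPM with sgSCR (0.03, adjusted p = 0.94), with overlapping groups. RARS1 was at 0.26 (adjusted p = 0.207). HARS1, whose 3′ end lies over WDR55 on the opposite strand, had 44.3, 44.9 and 42.3 CPM with sgALAS1 against 31.5, 34.1 and 39 CPM with sgSCR (adjusted p = 0.177). ATF4 fell in this arm, with 200, 204 and 166 CPM in sgALAS1 against 204, 314 and 276 CPM in sgSCR (-0.47, SE 0.16, adjusted p = 0.0476), and so did ASNS, with 44.3, 41.1 and 40.3 CPM in sgALAS1 against 50.2, 104 and 73.2 CPM in sgSCR (-0.86, SE 0.28, adjusted p = 0.0401). PSAT1 (-0.99, adjusted p = 0.0025) and CHAC1 (-1.45, adjusted p = 0.01) were the other 2 of the 10 genes of the axis that fell. Of the 11 synthetases listed as ATF4 targets, 2 (AARS1 and IARS1) fell and 9 were not called, with a median of -0.29.

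The arms share no library, so members called in both can be counted, although all libraries share 1 normalisation and 1 estimate of the spread. AARS1, IARS1, YARS1 and EEF1E1 fell in both. They are 4 of the 11 members called with SA, of which 10 were lower, and 4 of the 6 called with sgALAS1, all lower. Of all genes called with SA in either direction, 42.9% were called the same way with sgALAS1. Of all called with sgALAS1, 40.5% were called the same way with SA. Of all genes called lower with SA, 47.6% were also lower with sgALAS1, and of all called lower with sgALAS1, 43.4% were also lower with SA. Over all tested genes 2.97% were lower in both arms and 1.78% higher in both. No member was called in opposite directions. The difference between the effects, sgALAS1 minus SA, was tested directly. None of the 38 members was called by edgeR or DESeq2, against 1.19% of all tested genes by edgeR (0.427% higher and 0.759% lower). In edgeR 6 cytosolic genes had an unadjusted p under 0.05, 5 higher and 1 lower. The share of all tested genes under that unadjusted threshold was not counted. Among the 38 members SARS1 had the highest difference, at 0.87 (95% interval 0.35 to 1.38, adjusted p = 0.0932). GARS1 had 0.65 (0.24 to 1.07, adjusted p = 0.132), CARS1 had 0.58 (0.06 to 1.09, adjusted p = 0.347), and EPRS1 and AARS1 had 0.55 (adjusted p = 0.227) and 0.53 (adjusted p = 0.287). LARS2 had the lowest difference, at -0.66 (interval -1.43 to 0.10, adjusted p = 0.514), and FARSA had -0.54 (adjusted p = 0.22). Without vehicle replicate 3, SARS1 (1.08, adjusted p = 0.00589), GARS1 (0.81, adjusted p = 0.0238) and AARS1 (0.74, adjusted p = 0.0251) passed the test, and without vehicle replicate 1 FARSA did (-0.69, adjusted p = 0.0424). The difference was near 0 for EEF1E1 (-0.06, interval -0.56 to 0.43) and IARS1 (0.12, interval -0.27 to 0.52). All 11 synthetases listed as ATF4 targets had a difference above 0, that is, a smaller decrease or an increase with sgALAS1 relative to sgSCR, with a median of 0.48 against 0.00 over all tested genes. Between the controls, sgSCR over vehicle, 10 of these 11 values were below 0, with a median of -0.32. Their mean summed level was 1868 CPM with SA, 1897.5 CPM with sgALAS1, 2701 CPM with vehicle and 2143 CPM with sgSCR. A weaker effect of sgALAS1 and a lower starting level in sgSCR cannot be told apart here.

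The control groups also differed in some of these genes. sgSCR against vehicle shares its libraries with both arms, so its values are only set beside theirs. GARS1 was lower in sgSCR, with 86.3, 102 and 94.1 CPM against 166, 177 and 116 CPM in vehicle (-0.70, SE 0.14, adjusted p = 0.0052). WARS1 was also lower, with 92.4, 132 and 99.9 CPM in sgSCR against 206, 207 and 101 CPM in vehicle (-0.66, SE 0.17, adjusted p = 0.0483), although the groups overlapped. These were the 2 cytosolic genes called of 19, both lower, against 1.43% of all tested genes called and 0.962% called lower. No mitochondrial or scaffold gene was called by edgeR or DESeq2. In edgeR 1 mitochondrial gene had an unadjusted p under 0.05, a threshold for which the share of all tested genes was not counted. In 2 cytosolic genes every sgSCR library lay below every vehicle library and in 1 above, against 8.73% and 8.42% of all tested genes. CARS1 had -0.66 (adjusted p = 0.055) and ATF4 -0.71 (adjusted p = 0.0111). The GARS1 call was lost without vehicle replicate 2 or sgSCR replicate 1. The WARS1 call was lost without vehicle replicate 1, vehicle replicate 2, sgSCR replicate 1 or sgSCR replicate 3. Without vehicle replicate 3 the number of cytosolic calls was 4, and without vehicle replicate 2 or sgSCR replicate 1 it was 0. Calls over all tested genes in these 3 fits were 172 of 14448, 104 of 14286 and 84 of 14387, in the same order. With all libraries they were 198 of 13832. Guide, doxycycline and culture time all differ between these controls and cannot be told apart.

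SA was also set against the scrambled guide, a choice made after the values were seen. The same SA libraries are used as against vehicle, so this is not a separate observation. Besides SA, the groups differ in guide, doxycycline and culture time, which cannot be told apart. AARS1 (-0.71, adjusted p = 0.002), LARS1 (-0.47, adjusted p = 0.0173), IARS1 (-0.44, adjusted p = 0.0339), YARS1 (-0.40, adjusted p = 0.0379) and EEF1E1 (-0.83, adjusted p = 0.00113) were lower against this control too. RARS1 was higher (0.42, adjusted p = 0.0283). GARS1 (-0.32, adjusted p = 0.147), CARS1 (-0.21, adjusted p = 0.494), EPRS1 (-0.39, adjusted p = 0.0711), MARS1 (-0.45, adjusted p = 0.0844) and SARS1 (-0.45, adjusted p = 0.0971) did not pass. VARS1 (-0.57, adjusted p = 0.00592) and QARS1 (-0.40, adjusted p = 0.042) passed there and not against vehicle. In all 6 cytosolic genes were lower and 1 higher, against 7.65% and 5.91% of all tested genes, and no mitochondrial gene was called.

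**Figure D4:**
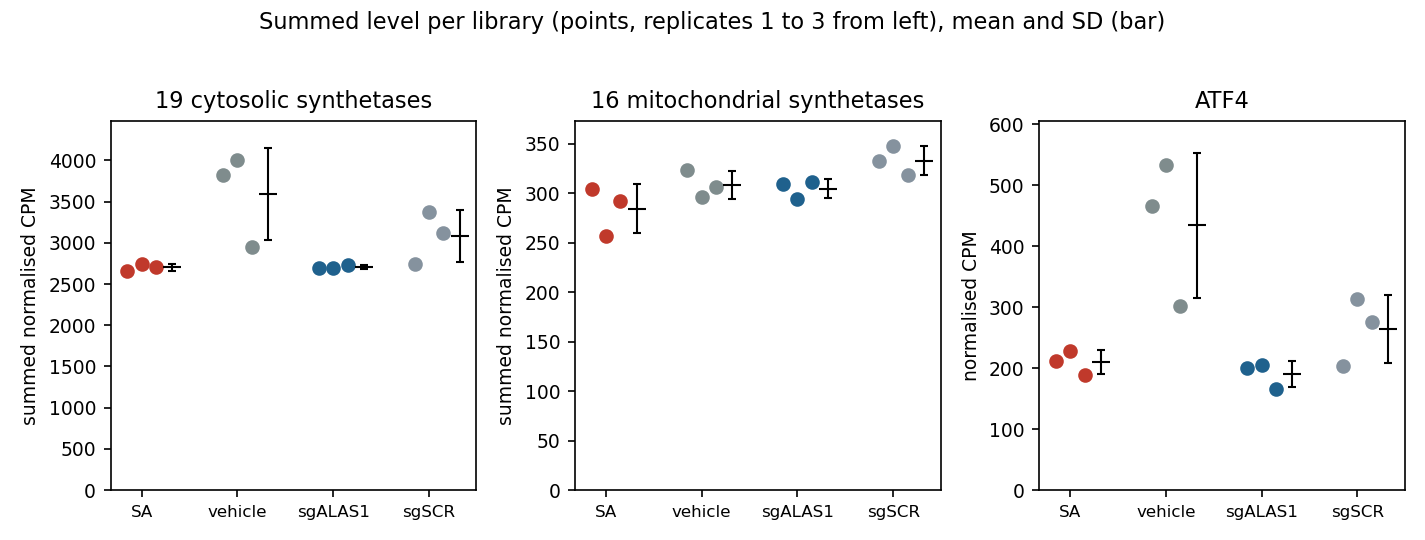
Summed normalised CPM of the 19 cytosolic synthetases (left) and the 16 mitochondrial synthetases (middle), and CPM of ATF4 (right), in each library (points) with mean and SD of 3 libraries (bar). The left and right panels share the spread of the vehicle libraries, with replicate 3 lowest at 2952 and 303 CPM; the mitochondrial sums overlap between SA and vehicle and lie apart between sgALAS1 and sgSCR.

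The cytosolic and mitochondrial sets are next set beside each other, as a description without a test. The summed cytosolic level was 2704 ± 42.5 CPM with SA and 3593 ± 562 CPM with vehicle (SD, n = 3 each). The summed mitochondrial level was 285 ± 24.7 CPM with SA and 309 ± 14 CPM with vehicle. Sums and their ratio weigh highly expressed genes most. TARS1, not called with SA, alone had means of 719 CPM with SA and 907 CPM with vehicle. IARS2 had means of 76.3 and 72.4 CPM. Cytosolic sums did not overlap between SA and vehicle, whereas the mitochondrial sums did. The ratio of cytosolic to mitochondrial reads was 8.75, 10.7 and 9.24 with SA against 11.8, 13.5 and 9.63 with vehicle, so that vehicle replicate 3 lay inside the SA range. With sgALAS1 the ratio was 8.72, 9.15 and 8.77, against 8.25, 9.70 and 9.79 with sgSCR, also overlapping. The cytosolic sum was 2705 ± 21.1 CPM with sgALAS1 and 3079 ± 315 CPM with sgSCR, and the mitochondrial sum was 305 ± 9.10 CPM with sgALAS1 and 333 ± 14.9 CPM with sgSCR (SD, n = 3 each). In this arm neither sum overlapped between the groups. The cytosolic sums were 2692 to 2729 CPM with sgALAS1 against 2748 to 3374 CPM with sgSCR, and the mitochondrial sums were 294 to 311 CPM with sgALAS1 against 318 to 348 CPM with sgSCR.

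In all, 17 pairs of genes that serve the same amino acid could be formed. In 12 of the 17 pairs the cytosolic value was below the mitochondrial one with SA, and in 7 of the 17 with sgALAS1. The pairs are not all separate, since EPRS1 was set against both EARS2 and PARS2, and FARS2 against both FARSA and FARSB. Small gaps count too, such as -0.71 for EPRS1 against -0.67 (SE 0.34) for EARS2 with SA. The isoleucyl pair was the best measured, since IARS2 has reads like those of a cytosolic gene. IARS2 had 80, 79.2 and 69.7 CPM with SA against 67.9, 74.8 and 74.5 CPM with vehicle (0.08, 95% interval -0.18 to 0.34), while IARS1 had -0.62 (-0.90 to -0.33). With sgALAS1, IARS2 was at 0.21 (-0.05 to 0.47) and IARS1 at -0.49 (-0.77 to -0.21). The intervals of the pair do not overlap in either arm. The arginyl pair ran the other way in the SA arm: RARS2 had 15.9, 16.9 and 22.4 CPM with SA against 29, 25.2 and 25.8 CPM with vehicle (-0.53, interval -0.91 to -0.15, adjusted p = 0.0651), while RARS1 was higher. For the cysteinyl pair both values were below 0 with SA, at -0.59 for CARS2 (adjusted p = 0.0545) and -0.87 for CARS1. CARS2 lies on chromosome 13, where the median of 231 tested genes was -0.39 with SA and -0.36 with sgALAS1; the part of the chromosome in its value was not tested.

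The mitochondrial genes were measured with too little precision for most to be set apart from the cytosolic median. With SA the 95% interval of 6 of the 16 lay above the cytosolic median of -0.43 and that of the other 10 included it. With sgALAS1 the interval of 13 of the 16 included the cytosolic median. Uncalled mitochondrial values ran from -0.67 for EARS2 to 0.24 for HARS2 with SA and from -0.55 for LARS2 to 0.31 for HARS2 with sgALAS1. The 3′ end of HARS2 overlaps ZMAT2 on the same strand, and that of YARS2 lies over DNM1L on the opposite strand, so these values are uncertain.

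**Figure D5:**
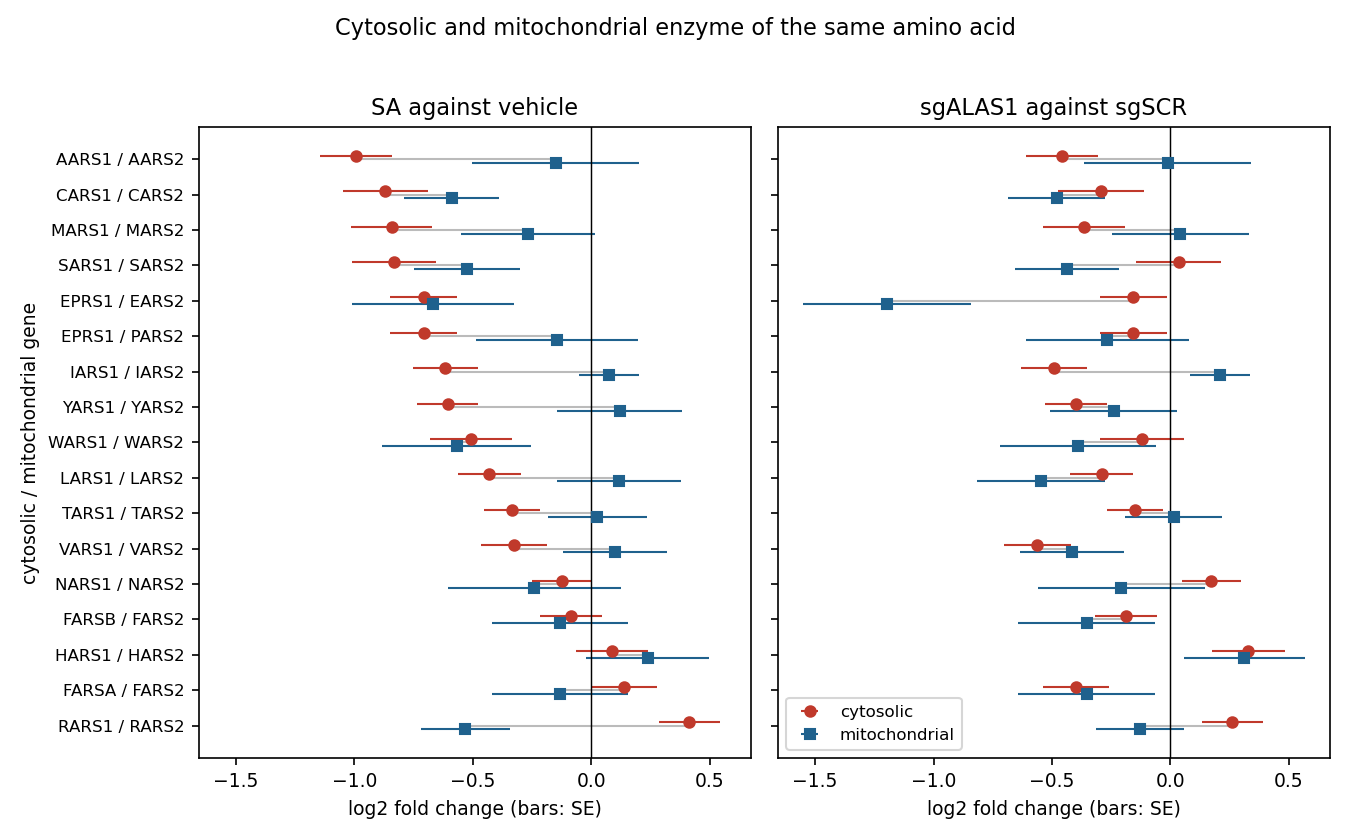
Log2 fold changes (bars, 1 SE) of the cytosolic gene (circle) and the mitochondrial gene (square) of each amino acid in SA against vehicle (left) and sgALAS1 against sgSCR (right). On the left the cytosolic circle is left of the square in 12 of 17 pairs, RARS1 being the farthest exception; on the right the order is mixed, with 7 of 17.

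Neighbouring steps of translation were read from lists drawn up alongside the set. The counts in this and the next lists stand beside the shares over all tested genes. Those were 6.24% lower and 4.83% higher with SA, and 6.85% lower and 4.88% higher with sgALAS1. Of 14 genes that handle or sense tRNA, 4 fell with SA and none rose. XPOT, the exporter of tRNA from the nucleus, had 43.7, 41.2 and 40.5 CPM with SA against 54.8, 68.7 and 58.9 CPM with vehicle, without overlap (-0.54, SE 0.14, adjusted p = 0.0121). DTD1, which removes D-amino acids from tRNA, fell with SA (-0.54, SE 0.13, adjusted p = 0.00806) and with sgALAS1 (-0.57, SE 0.14, adjusted p = 0.00403), where it was the only one of the 14 called. XPOT in that arm had 48.9, 47.1 and 40.1 CPM with sgALAS1 against 54.8, 65.7 and 61.5 CPM with sgSCR (-0.42, adjusted p = 0.0534). SEPHS1 (-0.51, adjusted p = 0.0284) and IMPACT, an inhibitor of GCN2 activation (-0.57, adjusted p = 0.0301), were the other 2 that fell with SA. EIF2AK4, the gene of GCN2 itself, had -0.04 with SA and 0.03 with sgALAS1.

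Of 6 cytosolic elongation factor genes, EIF5A rose with SA (0.51, SE 0.15, adjusted p = 0.0309) and the other 5 were not called; none was called with sgALAS1. EEF1A1, which delivers charged tRNA to the ribosome, had -0.21 in each arm. Of 11 mitochondrial translation factors, TUFM and MRRF fell with SA, and TUFM and MTRF1 with sgALAS1. TUFM, which delivers charged tRNA to the mitochondrial ribosome, had 76.4, 89.1 and 91.3 CPM with SA against 126, 113 and 123 CPM with vehicle (-0.50, SE 0.14, adjusted p = 0.0179). It had 77.8, 85.6 and 52.8 CPM with sgALAS1 against 125, 133 and 125 CPM with sgSCR (-0.82, SE 0.14, adjusted p = 0.000106), and the groups overlapped in neither arm. MRRF, the ribosome recycling factor, had -0.74 (SE 0.22, adjusted p = 0.0269) with SA. MTRF1, a release factor gene on chromosome 13, had -1.44 (SE 0.37, adjusted p = 0.00845) with sgALAS1. That value rests on 12 to 26 reads per sgALAS1 library and 53 to 60 per sgSCR library. MTRF1 was not called with SA, although its 3.11 to 4.38 CPM with SA lay below the 6.76 to 7.96 CPM with vehicle.

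Of 9 amino acid transporter genes, 6 fell with SA and 3 with sgALAS1, and none rose. SLC38A2, a sodium-coupled neutral amino acid transporter, had 83.5, 82.6 and 80.6 CPM with SA against 169, 190 and 144 CPM with vehicle (-1.03, SE 0.13, adjusted p = 1.05e-06). It had 70.8, 69.1 and 63.8 CPM with sgALAS1 against 91.8, 114 and 95.4 CPM with sgSCR (-0.56, SE 0.13, adjusted p = 0.00301). SLC38A1, its close relative, fell by 1.12 on the log2 scale in both arms (adjusted p = 6.95e-06 with SA and 1.09e-05 with sgALAS1). Between the controls both genes were lower in sgSCR than in vehicle, at log2 fold changes of -0.74 and -0.83, so that these transporters, like GARS1, started from different levels in the 2 arms. SLC7A1, the carrier of cationic amino acids on chromosome 13, fell with SA (-0.74, SE 0.14, adjusted p = 0.000455) and had -0.22 with sgALAS1 (adjusted p = 0.352). SLC43A1 was the third transporter called with sgALAS1 (-0.53, SE 0.18, adjusted p = 0.0478), and it was not called with SA.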

How the data were processed

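Gene expression was measured by QuantSeq 3′ sequencing in 12 libraries, 3 per group. The submitters' processing notes name bcl2fastq 2.17.1.14, cutadapt 1.14, the aligner HISAT2 2.0.4 with build hg19, and featureCounts (Subread 2.0.0). The sources used here do not give the annotation release, strand setting or treatment of multi-mapping reads. The authors deposited raw counts per Ensembl identifier. Of 57905 identifiers 51996 were named from a gene table and 342 from GENCODE 29.

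All libraries were fitted by group with edgeR 4.0.16 (R 4.3.3, limma 3.58.1) after TMM normalisation and filterByExpr, with the two-sided quasi-likelihood test and Benjamini-Hochberg adjustment over 13832 identifiers. The SE is the log2 fold change divided by the square root of F. DESeq2 1.42.0, RLE normalisation, no filter, a replicate block, 6-library fits and leaving out each library were alternatives. The fit was tested on simulated data. Values per library are given, in each arm, for up to 6 called members with the smallest p-values, called members moving against the rest, called mitochondrial members, ATF4, ASNS, XPOT and ALAS1; further members were shown after their values were seen. Members and lists were chosen with earlier results of these data known. Promoter sequences are RefSeq's. Precision of low counts is limited by depth.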

Additional observations from a re-analysis of the deposited data

Results flagged for a closer look

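ALAS1 moved in opposite directions in the arms: it rose with SA (log2 fold change 1.60, adjusted p = 1.36e-09) and fell with sgALAS1 (-0.56, adjusted p = 0.00777). The test of the difference between the effects, sgALAS1 minus SA, gave -2.16 on the log2 scale (adjusted p = 1.14e-08, edgeR's quasi-likelihood test), with every library on its side in both arms. ALAS1 is the targeted gene and not a synthetase. None of the 38 members showed a difference between the arms that passed the test. With 3 libraries per group, single libraries were not tested for standing apart.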

How the results depend on the processing

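With SA, the calls of AARS1, IARS1, YARS1 and EEF1E1 held under every alternative run, and those of GARS1, CARS1, EPRS1, MARS1 and SARS1 under all but sgSCR in place of vehicle. With sgALAS1, VARS1 and EEF1E1 held under every alternative run. Leaving out each library gave 8 to 11 cytosolic genes called lower and 0 to 1 higher with SA, and 0 to 1 mitochondrial genes lower. With sgALAS1 it gave 1 to 4 cytosolic and 0 to 2 mitochondrial genes lower. For the difference it gave 0 to 3 cytosolic genes higher and 0 to 1 lower, and for sgSCR against vehicle 0 to 4 lower. Over all tested genes, in either direction, it gave 954 to 1595 calls with SA and 1134 to 1415 with sgALAS1. It gave 109 to 340 for the difference and 84 to 276 for sgSCR against vehicle. With all libraries these numbers were 1531, 1622, 164 and 198. The mitochondrial median of the difference, 0.05, ran from -0.073 to 0.0822, being -0.064 without vehicle replicate 1, -0.073 without SA replicate 2, -0.0042 without SA replicate 3, -0.068 without sgSCR replicate 3, -0.0565 without sgALAS1 replicate 1 and -0.0144 without sgALAS1 replicate 3. With no filter on low counts RARS1 was lost with SA (adjusted p = 0.0529), leaving 0 cytosolic genes higher, YARS1 was lost with sgALAS1 (0.0533), and 1 cytosolic gene, SARS1, was called in the difference (0.88, 0.00214). That setting also called TARS1 (-0.35, 0.04) and WARS1 (-0.52, 0.00319) with SA, FARSA (-0.40, 0.0431) with sgALAS1 and CARS1 (-0.67, 0.000121) in sgSCR against vehicle. With only the 6 libraries of an arm LARS1 was lost with SA (0.0672), FARSA (-0.40, 0.0326) and GARS1 (-0.38, 0.0496) were gained with sgALAS1, making 6 cytosolic genes lower against 4, and for sgSCR against vehicle 1 cytosolic gene was called, WARS1 being lost (0.0806). Over all tested genes these 6-library fits called 1339 of 12921 with SA, 1660 of 12997 with sgALAS1 and 197 of 13048 for sgSCR against vehicle. The cause of the changed calls was not tested.

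Whether replicate numbers pair the libraries could not be settled with 3 per group. Same-numbered libraries correlated at 0.0933, 0.166 and -0.137 between SA and vehicle and at 0.00678, 0.06 and -0.142 between sgALAS1 and sgSCR. Differently numbered ones ran from -0.308 to 0.226 and from -0.212 to 0.194. A replicate block gave more calls over all tested genes: 1704 against 1531 with SA, 1796 against 1622 with sgALAS1, 227 against 164 for the difference and 266 against 198 between the controls. With a replicate block, 1 mitochondrial gene, CARS2 (-0.59, adjusted p = 0.0394), was called lower with SA, and 1 cytosolic gene, SARS1 (0.84, adjusted p = 0.0304), in the difference. It also called TARS1 (-0.33, 0.0422) and WARS1 (-0.47, 0.0387) with SA, FARSA (-0.40, 0.0212) with sgALAS1 and CARS1 (-0.66, 0.0309) in sgSCR against vehicle. Intervals and low counts cover counting error and the spread between these libraries only, and mitochondrial members are limited by depth.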
